A study of Mus musculus with 12 samples.

Results

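Lysophosphatidic acid metabolism was represented by 3 genes, Plpp3, Plppr1 and Agpat1, matched to the table through their Ensembl identifiers. The genes were chosen by name, with earlier results of these data known. All 3 were found among the 10749 listed genes, and all 3 were among the 8362 genes with enough reads to be tested. They were followed through 12 RNA libraries of cells sorted from the dentate gyrus of 8-week-old mice. Every mouse carried the LPA1-GFP reporter, the transgene Tg(Lpar1-EGFP)GX193Gsat/Mmucd, in which regulatory sequence of the lysophosphatidic acid receptor gene Lpar1 drives green fluorescent protein. The line came from a FVB/N-Swiss Webster background and was rederived into C57BL/6, and no group lacked the transgene. Stem libraries (n = 4) held GFP-positive cells with EGFR and Prominin1 on their surface. Progenitor libraries (n = 4) joined 3 kinds of GFP-positive cells: those with EGFR but no Prominin-1, those with neither, and those with Prominin-1 whose other marker is written EGF-, which differs from the EGFR of the other labels. Niche libraries (n = 4) held the GFP-negative cells, with no further marker. Since the animals behind each replicate are not described, p-values here cover the variation between libraries, some of which may be technical.

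Lysophosphatidic acid (LPA) is a small phospholipid that acts outside the cell through its own G protein-coupled receptors and, inside the cell, is a step in the making of other glycerolipids. Signalling ends when lipid phosphate phosphatases at the cell surface remove the phosphate group. Plpp3 encodes such an enzyme, which also acts on sphingosine 1-phosphate and phosphatidic acid. Plppr1 encodes a brain membrane protein of the same superfamily that lacks key catalytic residues and is known from the outgrowth of neurites and filopodia. Agpat1 encodes an acyltransferase of the endoplasmic reticulum that turns LPA into phosphatidic acid.

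Plpp3 (ENSMUSG00000028517) lies on GRCm38 chromosome 4, 105157347 to 105232764, on the plus strand. Plppr1 (ENSMUSG00000063446) lies on the plus strand of the same chromosome, 49059273 to 49340259. Agpat1 (ENSMUSG00000034254) lies on chromosome 17, 34604262 to 34613449, on the plus strand. Of its 3001 annotated exon bases, 101 are shared with exons of Egfl8 on the opposite strand, and whether the counting used strand is not given in the sources used here. The promoter windows are shown because RNA of all 3 genes was lower in stem than in niche libraries. They run from 250 bases before to 50 after a RefSeq transcription start (GRCm38.p6, plus strand, 5′ to 3′), at chr4:105157097-105157396 for Plpp3, chr4:49059212-49059511 for Plppr1, and chr17:34605611-34605910 and chr17:34608764-34609063 for 2 starts of Agpat1. Capitals mark matches to the GC box GGGCGG on either strand.
Plpp3: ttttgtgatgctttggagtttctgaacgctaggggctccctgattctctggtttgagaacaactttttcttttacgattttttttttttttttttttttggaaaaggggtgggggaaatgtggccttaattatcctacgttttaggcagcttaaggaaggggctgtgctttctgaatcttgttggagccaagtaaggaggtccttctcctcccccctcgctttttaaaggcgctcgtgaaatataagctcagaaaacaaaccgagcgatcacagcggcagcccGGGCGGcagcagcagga
Plppr1: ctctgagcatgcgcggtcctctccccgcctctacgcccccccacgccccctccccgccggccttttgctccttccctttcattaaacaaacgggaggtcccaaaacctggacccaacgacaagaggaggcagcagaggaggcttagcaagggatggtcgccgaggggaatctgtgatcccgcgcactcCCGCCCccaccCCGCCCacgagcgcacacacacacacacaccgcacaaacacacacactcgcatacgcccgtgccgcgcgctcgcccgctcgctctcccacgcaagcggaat
Agpat1, upstream start: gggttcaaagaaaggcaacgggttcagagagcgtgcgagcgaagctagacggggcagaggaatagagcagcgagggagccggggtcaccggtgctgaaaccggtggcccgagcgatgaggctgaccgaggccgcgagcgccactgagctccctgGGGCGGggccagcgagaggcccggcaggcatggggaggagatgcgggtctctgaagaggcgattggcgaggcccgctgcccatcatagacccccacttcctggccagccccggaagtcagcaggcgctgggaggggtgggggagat
Agpat1, downstream start: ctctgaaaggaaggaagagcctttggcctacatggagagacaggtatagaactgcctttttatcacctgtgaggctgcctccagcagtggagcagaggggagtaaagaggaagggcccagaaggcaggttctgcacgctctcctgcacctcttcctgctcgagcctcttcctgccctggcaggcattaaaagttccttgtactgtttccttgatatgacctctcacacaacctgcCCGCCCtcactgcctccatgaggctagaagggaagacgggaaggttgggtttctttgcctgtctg

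Each of these 4 windows held the GC box, with 2 matches in Plppr1 and 1 in each of the others, while 35.7% of 32851 RefSeq windows of the same length held it. The CCAAT box (CCAAT, either strand) was found once, at the upstream start of Agpat1, against 37.4% of all windows. Neither the TATA box (TATAAA, 13.6% of all windows) nor the E-box (CACGTG, 7.2%) was found in any of the 4. No searched motif contains another. The windows differed in base composition: Plppr1 had 29 CpG dinucleotides and 65.7% G and C, the upstream start of Agpat1 24 and 68.0%, Plpp3 11 and 46.0%, and the downstream start of Agpat1 4 and 54.3%. The median over all windows was 7 CpG and 52.7%. These matches describe the letters only, since no binding or methylation was measured.

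Levels are given as RPKM, the reads per kilobase of exon scaled to library depth, divided by a scaling factor per library (trimmed mean of M-values, TMM). Differences and tests are on the log2 scale after 1 RPKM was added, fitted with limma over all 12 libraries, with p-values adjusted by the Benjamini-Hochberg method over the 8362 tested genes at a threshold of 0.05. Library depth ran from 7597256 to 22854036 reads. The TMM factor of niche replicate 1 was 0.419, against 0.820 to 0.958 in the other niche libraries and 0.917 to 1.25 in stem and progenitor. The 4 listed blood markers summed to 1076981 scaled RPKM in that library and to 37251 to 180705 in the other niche libraries, against at most 2053 in stem and 3390 in progenitor. Comparisons with niche therefore depend on the scaling more than stem against progenitor does. Over all tested genes the median difference of stem against niche was 0.09, and 0.58 by library size alone. For progenitor against niche these medians were 0.15 and 0.62.

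The labelled populations were checked against cell type markers. The neural stem and radial glia list (11 of 15 genes listed in the table) had sums of 665 to 1244 in stem libraries. Progenitor libraries had 1203 to 2537 and niche libraries 638 to 919, so the summed level did not set stem apart. Fabp7 was the largest part of these sums, with means of 721 in stem, 1413 in progenitor and 500 in niche. Single genes differed: Sox1, Tfap2c and Pax6 averaged 24.0, 3.68 and 8.82 in stem against 2.73, 0.351 and 2.93 in niche. Progenitor means of these genes were 13.3, 3.97 and 11.5, so only Sox1 among them was highest in stem. Hes1, Id4 and, barely, Hes5 were lower in stem than in niche (10.2, 10.2 and 6.35 against 73.8, 52.3 and 6.41). The sort markers Lpar1 and Prom1 were not analysed here. Microglia and macrophage markers (7 of 18) were high in stem (sums of 1970 to 7568) and niche libraries (2651 to 4921) and low in progenitor libraries (116 to 228). Cell cycle markers (6 of 16) had sums of 580 to 1009 in stem, 167 to 294 in progenitor and at most 86.2 in niche libraries. In such sorted bulk samples, fewer cells of a type and less RNA per cell cannot be told apart.

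Plpp3, the surface phosphatase, was abundant in every library and lower in stem than in both other populations. Its scaled level was 99.6, 63.6, 113 and 88.0 RPKM in stem replicates 1 to 4. In progenitor it was 261, 270, 237 and 289. In niche it was 387, 427, 273 and 267. All 4 stem libraries thus lay below all 8 others, and progenitor and niche overlapped. Behind these values stood 2325 to 5395 reads per stem library, 11230 to 25906 per progenitor library and 5597 to 21257 per niche library.

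Group means of Plpp3 were 91.0 ± 20.9 RPKM in stem, 264 ± 21.8 in progenitor and 338 ± 80.5 in niche (SD, n = 4). The mean in progenitor was 2.90 times and that in niche 3.72 times the mean in stem. The log2 difference of stem against progenitor was -1.55 ± 0.26 (SE, limma adjusted p = 0.00189, 95% interval -2.12 to -0.99). Of the 3 genes, it alone was called in this comparison, where 3.40% of the tested genes were lower in stem and 7.10% were called in either direction. Groups did not overlap, with stem lower, for 13.2% of the tested genes. Against niche the difference was -1.88 ± 0.26 (limma adjusted p = 9.9e-05, interval -2.45 to -1.32), and -1.19 by library size alone (0.00308). Progenitor and niche differed by -0.33 ± 0.26 (0.450, interval -0.89 to 0.23), and by 0.32 (0.362) with library size alone. The order of levels was therefore stem below progenitor and niche, with no order shown between these.

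Plppr1, the relative without key catalytic residues, was scarce in stem and highest in niche. Its scaled level was 1.26, 0.133, 1.60 and 1.72 RPKM in stem replicates 1 to 4. In progenitor it was 0.169, 6.21, 3.83 and 4.25. In niche it was 28.9, 16.7, 20.3 and 9.56. All 4 niche libraries lay above all others. Among the rest, 2 libraries stood low: stem replicate 2 with 6 reads, where the other stem libraries had 53 to 100, and progenitor replicate 1 with 9 reads, where the other progenitor libraries had 373 to 474. The floor of 3 reads, the upper limit that a count of 0 allows, lies below both counts. It covers counting error only, and the labels mention no molecular identifiers for the amplified RNA.

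Group means of Plppr1 were 1.18 ± 0.723 RPKM in stem, 3.61 ± 2.52 in progenitor and 18.9 ± 8.03 in niche (SD, n = 4). Stem against niche differed by -3.17 ± 0.59 (SE, limma adjusted p = 0.00112, 95% interval -4.42 to -1.93), and the mean in niche was 16.02 times that in stem. Because the stem level is near the pseudocount, this value was -4.15 with 0.1 RPKM added and -2.08 with 4 RPKM added (limma adjusted p = 0.00780 and 4.5e-04). Progenitor against niche differed by -2.28 ± 0.59 (0.0201, interval -3.53 to -1.04). That call was lost by library size alone (-1.66, 0.0625), with 0.1 RPKM added (-2.92, 0.0703) and with only these 2 groups in the fit (-2.25, 0.0626). Over the 22 alternatives its adjusted p ran from 0.00715 to 0.0703.

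Stem against progenitor was not called for Plppr1, at -0.89 ± 0.59 (limma adjusted p = 0.522, interval -2.14 to 0.36). Without progenitor replicate 1 the difference was -1.46 (0.126), and without both that library and niche replicate 1 it was -1.50 (0.0322). In the absence of progenitor replicate 1 the remaining 3 progenitor libraries, at 3.83 to 6.21 RPKM, lay above all 4 stem libraries. Over all alternatives for this comparison the adjusted p ran from 0.0322 to 0.833. The data therefore give niche above both GFP-positive populations for this gene, with no order shown between stem and progenitor across all 8 of their libraries.

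**Figure D1:**
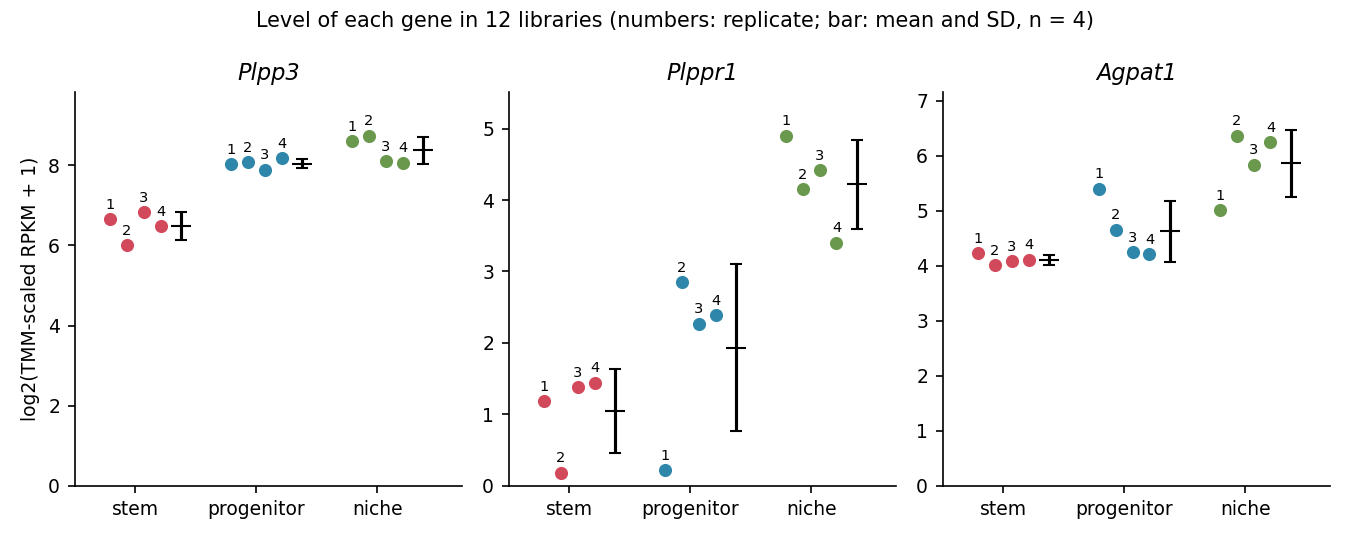
Level of Plpp3, Plppr1 and Agpat1 as log2(TMM-scaled RPKM + 1) in each of the 12 libraries, with the replicate number beside each point and the group mean and SD (n = 4) as a bar. Stem libraries lie below all others for Plpp3, niche libraries lie above all others for Plppr1, and progenitor replicate 1 stands low for Plppr1 and high for Agpat1.

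Agpat1, the acyltransferase that consumes LPA inside the cell, was lower in stem than in niche, with no order shown between stem and progenitor. Its scaled level was 17.7, 15.1, 15.9 and 16.3 RPKM in stem replicates 1 to 4. In progenitor it was 41.3, 24.2, 17.93 and 17.5. In niche it was 31.2, 80.9, 55.9 and 74.8. Stem libraries were close to one another and below every niche library. Progenitor replicates 3 and 4 lay beside stem replicate 1, and progenitor replicate 1 lay above niche replicate 1. It had 441 to 615 reads per stem library, 1130 to 1426 per progenitor library and 401 to 3228 per niche library. On the deposited scale, before TMM scaling, niche replicate 1 was at 3.81 (log2 of RPKM + 1) and thus below the 4.15 to 4.52 of stem, while the other niche libraries were at 5.77 to 6.07.

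Group means of Agpat1 were 16.27 ± 1.117 RPKM in stem, 25.2 ± 11.2 in progenitor and 60.7 ± 22.4 in niche (SD, n = 4). Stem against niche differed by -1.75 ± 0.38 (SE, limma adjusted p = 0.00400, 95% interval -2.57 to -0.94), and the mean in niche was 3.73 times that in stem. By library size alone the difference was -1.09 and the call was lost (0.0813), where the 22 alternatives spanned 1.8e-05 to 0.0813. Stem against progenitor was not called (-0.52 ± 0.38, 0.594, interval -1.34 to 0.30), and the difference was -0.25 without progenitor replicate 1 (0.887).

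Progenitor against niche stood at the threshold for Agpat1, at -1.23 ± 0.38 (SE, limma adjusted p = 0.0495, interval -2.05 to -0.42), and the groups overlapped. The call was lost under 16 of 22 alternatives, whose adjusted p ran from 1.9e-04 to 0.335. These include leaving out stem replicate 1 (0.0702), 2 (0.0621), 3 (0.0690) or 4 (0.0705), progenitor replicate 2 (0.110), 3 (0.152) or 4 (0.15), and niche replicate 2 (0.0841), 3 (0.0553) or 4 (0.0793). It was also lost by library size alone (0.335) and with the replicate number as a block (0.0762).

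Across the 3 genes, stem against niche was called lower for 3 of 3, where 10.7% of all tested genes were called lower. The 3 genes were chosen with earlier results of these data known, so setting them beside such shares is a description and not a test. Their groups did not overlap in that comparison either, where this held with stem lower for 10.4% of tested genes. Progenitor against niche was called lower for Plppr1 and Agpat1, where 5.76% of tested genes were called lower, and only Plppr1 showed groups that did not overlap (6.79% of tested genes with progenitor lower). Because stem and progenitor were compared with the same niche libraries, these comparisons share their controls. The differences and their intervals are plotted by comparison.

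**Figure D2:**
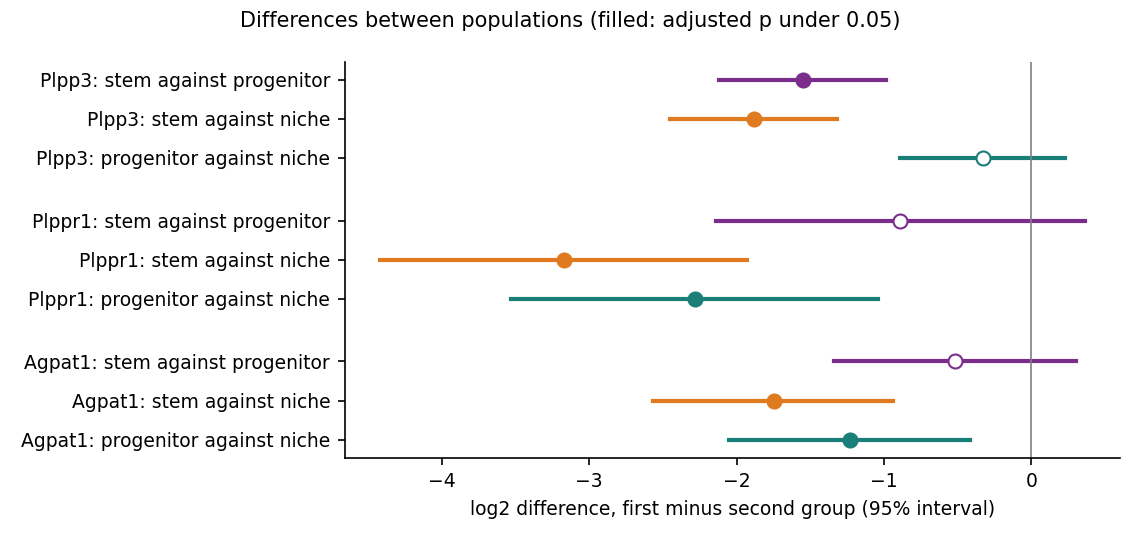
Difference of group means on the log2(TMM-scaled RPKM + 1) scale, first minus second group, with 95% intervals from limma, filled where the adjusted p was under 0.05. All 9 values are below 0, from -3.17 for Plppr1 in stem against niche to -0.33 for Plpp3 in progenitor against niche, and 6 of them are filled.

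RPKM per library placed Plpp3 above Agpat1 and Agpat1 above Plppr1 in all 12 libraries. Plpp3 was 4.22 to 7.07 times Agpat1 in stem, 6.30 to 16.5 times in progenitor and 3.57 to 12.4 times in niche. Agpat1 was 9.51 to 114 times Plppr1 in stem, 3.89 to 245 times in progenitor and 1.08 to 7.82 times in niche, with the smallest ratio in niche replicate 1. These ratios rest on the exon lengths that the deposited values imply. They were 3159 bases for Plpp3, equal to the annotated exons, 3912 for Plppr1 against 7270 annotated and 2529 for Agpat1 against 3001.

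Within the family members in the table, Plpp3 supplied most of the RNA of the genes listed as lipid phosphate phosphatases. The shares leave out 1 of 7 listed phosphatases, 2 of 5 phosphatase-related genes and 2 of 9 LPA acyltransferase genes, which were not analysed here. It made up 76.5% ± 3.30 of the summed RPKM of the 6 lipid phosphate phosphatases in stem, 87.1% ± 3.92 in progenitor and 73.8% ± 2.99 in niche (SD, n = 4). Progenitor libraries, at 81.9% to 91.3%, lay above all stem (73.0% to 80.6%) and niche libraries (71.6% to 78.0%). Plppr1 made up 2.71% to 24.2% of the 3 phosphatase-related genes in stem libraries, 2.60% to 46.6% in progenitor libraries and 11.7% to 81.4% in niche libraries, where replicate 1 was highest. Agpat1 made up 24.2% to 31.3% of the 7 genes listed as LPA acyltransferases in stem libraries, 14.1% to 21.99% in progenitor libraries and 14.3% to 36.7% in niche libraries. Stem and progenitor did not overlap in this share, with stem higher, although the level of Agpat1 was not called different between them. These shares were not tested, and the action of each listed gene on LPA was not measured.

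Cell type markers were set beside the 3 genes. Astrocyte markers (11 of 15, none at 0 in any library) had summed levels of 974 to 1549 scaled RPKM in stem libraries. They were at 3928 to 5450 in progenitor libraries and at 5751 to 7776 in niche libraries, where Plpp3, a gene known from astrocytes, was also higher than in stem. Plpp3 equalled 6.43% to 9.73% of that sum in stem libraries, above progenitor (5.30% to 6.38%) and niche libraries (4.57% to 6.12%). Its ratio to these markers was thus higher in stem while its level was lower. Clu and Aldoc were the largest parts of the astrocyte sums. Their means were 277 and 241 in stem, 1759 and 1600 in progenitor, and 2169 and 1436 in niche. Of this list Sox9 alone averaged lower in niche (99.6) than in stem (157), with 184 in progenitor. Mature neuron markers (6 of 14) had sums of at most 25.2 in stem libraries and 53.4 in progenitor libraries, with 123 to 605 in niche libraries. Gad2 of this list was at 0 in stem replicate 3, progenitor replicate 1 and niche replicate 1. Plppr1 was highest in niche as these markers were, but its highest library, niche replicate 1, had the lowest neuron sum in niche (123). Neuronal progenitor and neuroblast markers (6 of 11) went another way, with sums of 917 to 2413 in progenitor libraries, 189 to 436 in niche libraries and at most 122 in stem libraries. Within that list Stmn2, Tubb3, Cd24a and Tac2 had higher means in niche than in stem. Eomes and Neurog2 had lower ones, at 0.731 and 0.231 in niche against 23.1 and 10.3 in stem and 41.3 and 10.7 in progenitor. Oligodendrocyte markers (6 of 13, none at 0) had sums of 147 to 614 in stem libraries, below progenitor (2173 to 6188) and niche libraries (2625 to 5831). Agpat1 was highest in niche replicate 2, while the oligodendrocyte sum was highest in progenitor replicate 1. Endothelial markers (8 of 14) had sums of 25.2 to 63.6 in stem libraries, where Plpp3 was also lowest. Their sums were 68.1 to 120 in progenitor libraries and 208 to 1078 in niche libraries. Within that list Egfl7 had a higher mean in stem (10.6) than in progenitor (3.30), and Cdh5 was at 0 in stem replicate 4. The part of these cell types in the differences was not tested.

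**Figure D3:**
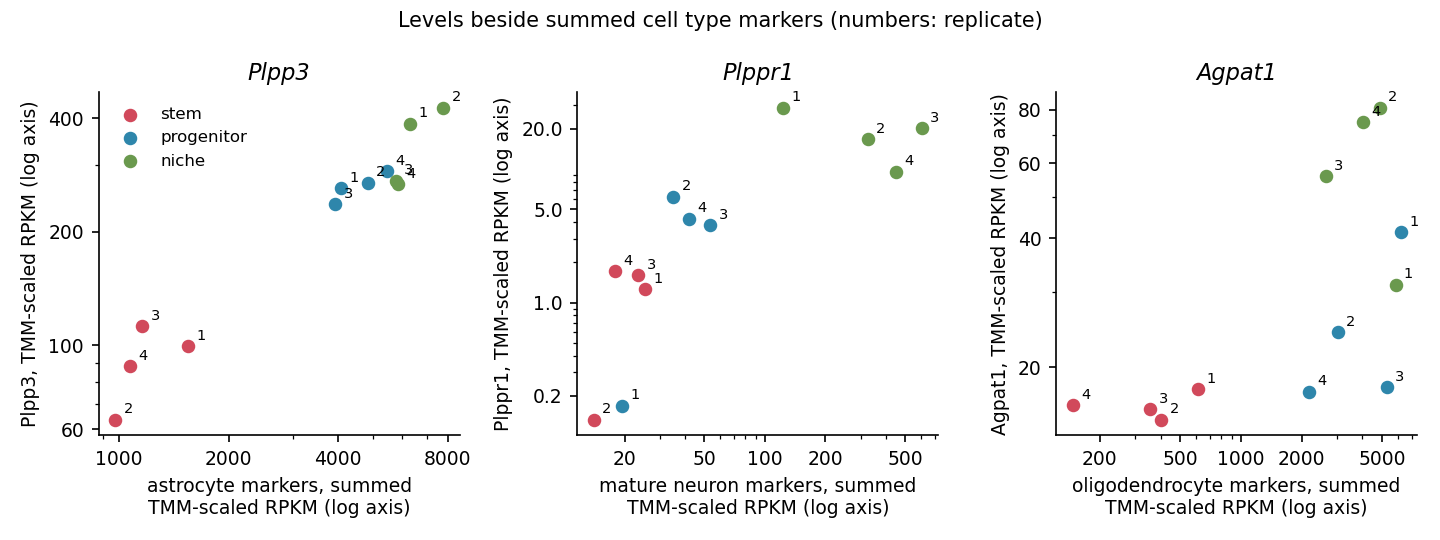
Scaled RPKM of Plpp3, Plppr1 and Agpat1 against the summed scaled RPKM of astrocyte, mature neuron and oligodendrocyte markers, on log axes, with 1 point per library numbered by replicate. For Plpp3 the stem libraries lie apart at 974 to 1549 marker RPKM, and for Agpat1 the progenitor libraries have marker sums as high as niche but levels of 17.5 to 41.3.

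The genes most like each of the 3 in pattern were taken as the 5 with the highest Pearson correlation over the 12 libraries, a description without a test since the libraries fall into 3 populations. For Plpp3 these were Mfap3l (r = 0.981), Scrg1 (0.980), Ttyh1 (0.976), Acsl3 (0.973) and Gm20878 (0.972). For Plppr1 they were Slco1c1 (0.957), Unc79 (0.951), Wsb2 (0.938), Pura (0.937) and Adcyap1r1 (0.937). For Agpat1 the first 4 were Arl6ip5 (0.981), Saraf (0.962), Grasp (0.959) and Ehd3 (0.954). No named gene appeared for more than 1 of the 3, and between the 3 themselves r was 0.75 for Plpp3 and Plppr1, 0.68 for Plpp3 and Agpat1 and 0.61 for Plppr1 and Agpat1.

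Other genes of LPA and phosphatidic acid metabolism were followed by role from a list of 70, of which 37 were in the table and 33 were tested, the 3 genes above included. This list was also chosen with earlier results of these data known. In stem against progenitor 2 were higher and 2 lower (median -0.33, against -0.06 over all tested genes, of which 3.71% were called higher). Leaving aside Plpp3, Plppr1 and Agpat1, the other 30 tested genes gave 2 higher and 1 lower (median -0.27). In stem against niche 1 was higher and 9 lower (median -0.62, against 0.09), where 21.6% of tested genes were called and 10.9% were higher. The other 30 gave 1 higher and 6 lower (median -0.45). Without niche replicate 1 the total over all 33 was 16 in place of 10, while the genes called among all tested genes were 2495 in place of 1806. In progenitor against niche 1 was higher and 7 lower (median -0.36, against 0.15), where 11.4% of tested genes were called and 5.66% were higher. The other 30 gave 1 higher and 5 lower (median -0.33). The total of 8 over all 33 was 5 without progenitor replicate 2 and 14 without niche replicate 1. The genes called among all tested genes moved as well, from 955 to 560 and 1647. Extracellular production had 0 of 7 genes in the table, so the making of LPA outside the cell, and the receptor gene Lpar1 behind the reporter, were not analysed here.

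Of the 3 tested receptor genes, Lpar2 was higher in stem and progenitor than in niche. It was at 1.54 ± 1.11 RPKM in stem, 2.19 ± 0.770 in progenitor and 0.118 ± 0.0720 in niche (SD, n = 4), the last from 3 to 7 reads per library. The difference was 1.10 ± 0.37 for stem against niche (SE, limma adjusted p = 0.0448) and 1.48 ± 0.37 for progenitor against niche (0.0167). The first was lost without stem replicate 1 (0.143), 3 (0.0799) or 4 (0.0639), progenitor replicate 2 (0.0646), 3 (0.0624) or 4 (0.0643), or niche replicate 2 (0.0780), 3 (0.0717) or 4 (0.0637). It was also lost with the replicate block (0.0533), median-of-ratios factors (0.0522), a pseudocount of 4 RPKM (0.0867), no filter (0.0633) and 2 groups only (0.0700), which makes 14 of 22 alternatives. Lpar4 and Lpar6 were not called in any comparison, although without niche replicate 1 Lpar6 was called higher in stem than in progenitor (0.0449) and in niche (0.0378). By library size alone it was called in stem against niche (1.62, 0.0260).

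Among the other phosphatases, Plpp1, which acts on the same lipids as Plpp3, was at 7.23 ± 1.35 RPKM in stem, 7.62 ± 1.92 in progenitor and 48.4 ± 58.7 in niche, where replicate 1 reached 136. It was lower in stem than in niche (-1.95 ± 0.59, limma adjusted p = 0.0282), a call lost without stem replicate 1 (0.0583), 2 (0.0749), 3 (0.0563) or 4 (0.0604), and by library size alone (-1.29, 0.0619), with 2 groups only (0.0754) and by voom (0.0587). Plpp4 was lower in stem than in niche (-3.86 ± 0.96, 0.00981), although niche replicate 1 had 1 read and lay within stem. Unlike Plpp3, neither was called in stem against progenitor (-0.05 ± 0.59 and -1.10 ± 0.96), but the difference between the genes was not tested. Plpp4 in progenitor against niche was not called (0.0782), and was without niche replicate 1 (6.8e-05). Plpp1 in that comparison stood at 0.0501, and was called without niche replicate 1 (0.0214), 3 (0.0362) or 4 (0.0177). Plpp5, Plpp6 and Plpp7 were not called in any comparison. Plpp6 had 5 reads in niche replicate 1, and without that library it was called lower than in niche in stem (0.00832) and in progenitor (0.00820). Plpp7 was called in stem against niche without both progenitor replicate 1 and niche replicate 1 (0.0440).

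Of the relatives of Plppr1, Plppr5 showed the same calls. Its level was 0.586 ± 0.609 RPKM in stem, 1.30 ± 1.13 in progenitor and 20.4 ± 13.0 in niche (SD, n = 4). It was lower in stem (-3.58 ± 0.57, limma adjusted p = 3.4e-04) and in progenitor (-3.10 ± 0.57, 0.00212) than in niche, and the 2 GFP-positive populations differed by -0.48 ± 0.57 (0.80). Progenitor replicate 1 was again the lowest of its group, with 6 reads against 86 to 249. Plppr2 was not called in any comparison, but niche replicate 1, with 12 reads and 0.859 RPKM, stood below the other niche libraries at 20.7 to 66.3. Without that library Plppr2 was called lower than in niche in stem (limma adjusted p = 1.1e-04) and in progenitor (3.1e-04).

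Of the acyltransferases, Agpat4 had the largest differences between stem and the other populations. Its level was 11.8 ± 6.45 RPKM in stem, 73.3 ± 32.9 in progenitor and 112 ± 25.2 in niche (SD, n = 4). It was lower in stem than in progenitor (-2.56 ± 0.39, limma adjusted p = 8.8e-04) and in niche (-3.23 ± 0.39, 3.0e-05). Progenitor against niche was not called (-0.67 ± 0.39, 0.286), a smaller difference than that of Agpat1. Agpat1 was called only in the comparisons with niche, and whether the genes differ in this was not tested. Agpat5, Lclat1, Mboat1, Mboat2 and Abhd5 were not called in any comparison, although in stem against niche Agpat5 (0.0130) and Mboat2 (0.05 as rounded) were past the threshold without niche replicate 1.

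Of the 5 tested genes of intracellular production and removal, Gdpd3, a lysophospholipase D that can release LPA, was at 110 ± 88.1 RPKM in stem, 18.8 ± 11.7 in progenitor and 96.9 ± 50.6 in niche (SD, n = 4). It was higher in stem than in progenitor (2.64 ± 0.66, limma adjusted p = 0.0214, lost without stem replicate 2 at 0.0936) and lower in progenitor than in niche (-2.60 ± 0.66, 0.0182, lost by library size alone at -1.95 and 0.0702). Abhd6, a monoacylglycerol lipase, was lower in stem than in niche (-1.85 ± 0.30, 3.6e-04). It was lower in progenitor than in niche as well (-1.06 ± 0.30, 0.0311), but not without progenitor replicate 2 (0.0899) or 3 (0.0900) or niche replicate 3 (0.0549). By library size alone that difference was -0.41 (0.453), and it was lost with 2 groups only (0.0947) and no trend (0.0506) as well. Stem against progenitor was not called for Abhd6 (0.152), and was without niche replicate 1 (0.0371).

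Of the 9 tested genes listed under phosphatidic acid turnover, whose enzyme activity was not measured, Pld4 is a phospholipase D family member known from microglia. Pld4 was at 429 ± 327 RPKM in stem, 16.4 ± 7.20 in progenitor and 291 ± 131 in niche (SD, n = 4). It was higher in stem than in progenitor (4.46 ± 0.47, limma adjusted p = 5.8e-05) and lower in progenitor than in niche (-4.07 ± 0.47, 4.4e-05), while stem and niche differed by 0.39 ± 0.47 (0.583). The summed microglia and macrophage markers given above were likewise low in progenitor libraries and high in the others. Mrc1 of that list departed from this, with a niche mean (8.43) below the progenitor mean (9.10) and a stem mean of 354. Every other gene of the list averaged higher in both stem and niche than in progenitor. Among these, Adgre1 had a mean of 284 for stem but only 45.1 for niche, against 7.37 for progenitor. The part of these markers in the differences of Pld4 was not tested. Cds1, which makes CDP-diacylglycerol, was lower than in niche in stem (-1.46 ± 0.45, 0.0312) and progenitor (-1.71 ± 0.45, 0.0231). The call in stem was lost without stem replicate 1 (0.0573), 2 (0.0861) or 4 (0.0840) or niche replicate 2 (0.0610) or 3 (0.0603), and that in progenitor without progenitor replicate 2 (0.0636) or 4 (0.0794). By library size alone both were lost (0.104 and 0.0573), as they were with 2 groups only (0.0970 and 0.0853), and that in stem was lost with 0.1 RPKM added (0.0582).

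**Figure D4:**
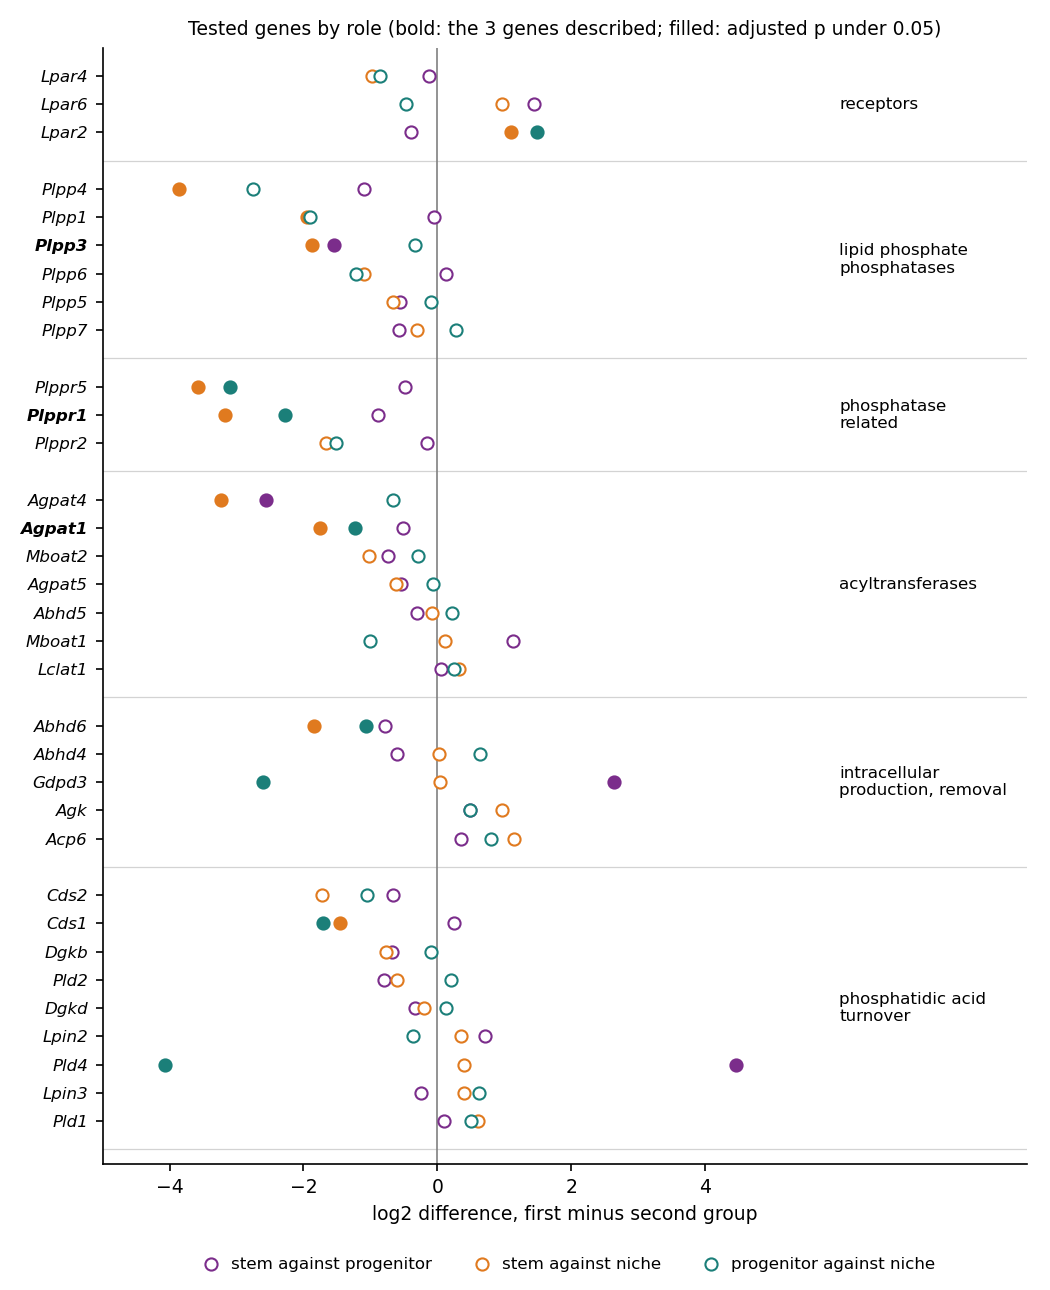
Difference of group means on the log2(TMM-scaled RPKM + 1) scale for the 33 tested genes by role, with 1 circle per comparison, filled where the limma adjusted p was under 0.05 and gene names in bold for Plpp3, Plppr1 and Agpat1. Filled circles lie left of 0 except for Lpar2 against niche (1.10 and 1.48) and for Gdpd3 (2.64) and Pld4 (4.46) in stem against progenitor.

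How far the 9 differences of Plpp3, Plppr1 and Agpat1 moved under other settings is plotted beside the reported values. Plpp3 kept both of its calls under all 22 alternatives, with adjusted p of 4.9e-04 to 0.0114 against progenitor and 4.0e-05 to 0.00308 against niche. Plppr1 kept its call in stem against niche under all 22 (1.2e-04 to 0.00780).

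**Figure D5:**
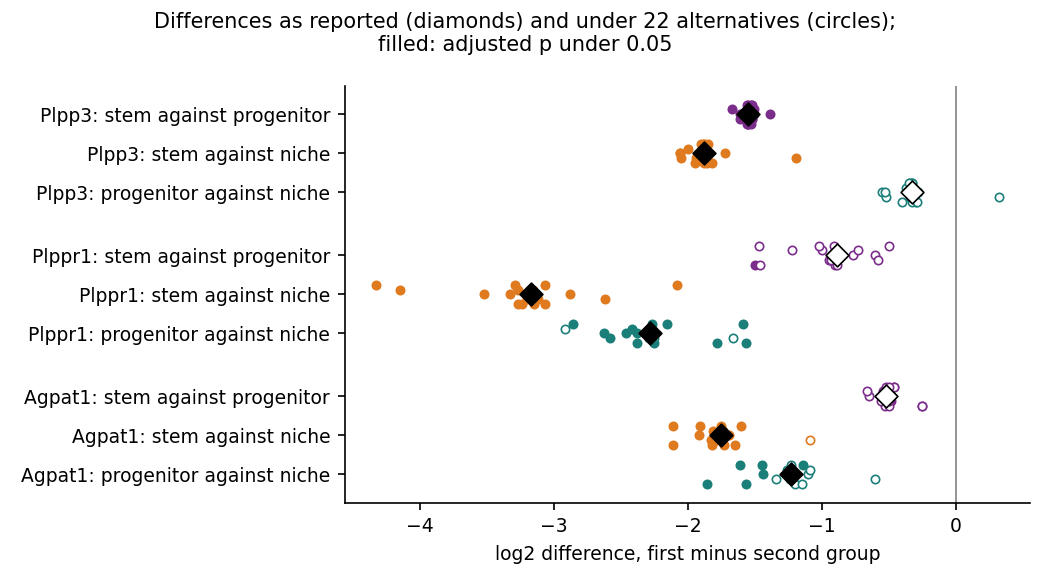
Difference of group means on the log2 scale (first minus second group) for each gene and comparison as reported (diamonds) and under 22 alternatives in scaling, pseudocount, filter, test and libraries (circles), with symbols filled where the adjusted p was under 0.05. Only Plpp3 in progenitor against niche crosses 0, at 0.32 by library size alone, and Agpat1 in progenitor against niche has 16 open circles.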

How the data were processed

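RNA of 1000 sorted cells per library was amplified and sequenced, per the labels' protocols. The authors deposited 1 table of log2 values for 12 libraries, and per the submitters' processing notes the build was mm10 (GRCm38). Not given in the sources used here are aligner, counter and use of strand. The values were read as log2(RPKM + 1): turned back into reads, 100% of 106417 values came out whole within 1e-05 reads. Exon lengths equalled the annotated ones for 1239 genes and were found from the values for 9271. A found length was the smallest that made every library whole, so for those genes wholeness was partly fixed by that choice. Library totals were 7597256 to 22854036 reads.

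A gene was tested if 4 or more libraries held the equivalent of 10 reads in the library of median depth and all libraries together held 15 reads. RPKM were divided by TMM factors (trims of 0.3 and 0.05). The log2 of the quotient plus 1 RPKM entered limma 3.58.1 (R 4.3.3), with a mean for each group, intensity trend and robust spread. Tests were two-sided. Reads were recovered and figures drawn with Python 3.11.15. The fit and the recovery of reads were tested on simulated data. In each group the closest pair of replicates differed by more than sampling noise (chi-square per degree of freedom of at least 38.9).

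The 3 genes, the marker lists and the pathway lists were chosen with earlier results of these data known. Pathway genes called in any comparison are described, at most 4 per role. Some genes not called or not tested are named as well, and others are not. Genes most like in pattern are the 5 with the highest Pearson correlation, of which 1 is not reported here. Alternatives were library size or median-of-ratios scaling, pseudocounts of 0.1 and 4 RPKM, no filter, 2 groups only, no trend, a replicate block, voom on the recovered reads, and leaving out libraries.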

Additional observations from a re-analysis of the deposited data

Results flagged for a closer look

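In 36 sets of 4 libraries, made of the 12 genes with a call and the 3 populations, the gap between the extreme library and its nearest neighbour was set against the range of the set. It passed Dixon's limit in 3 sets, and chance passes about 1 in 20. Plpp1 was low in stem replicate 2, at 2.64 on the log2 scale against 3.12 to 3.20 in the other stem libraries. Gdpd3 was high in stem replicate 2, at 7.92 against 6.01 to 6.1. Gdpd3 was low in progenitor replicate 1, at 1.55 against 4.52 to 4.90. None of the sets of Plpp3, Plppr1 or Agpat1 passed the limit, although Plppr1 in progenitor replicate 1 was at 0.22 against 2.27 to 2.85.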

How the results depend on the processing

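Each of the 15 results was recomputed under 22 alternatives. By library size alone, the log2 difference of Plpp3 in progenitor against niche turned from -0.33 to 0.32, the other 2 genes lost their calls there (Plppr1 -1.66, Agpat1 -0.60), and Agpat1 lost its call in stem against niche (-1.09). The same scaling called 1839 genes (1525 higher, 314 lower) in progenitor against niche in place of 955 (473 and 482), 4 of them among the LPA pathway genes in place of 8. In stem against niche it gave 2017 higher and 586 lower in place of 910 and 896. The cause was not tested, but the TMM factor of niche replicate 1 was 0.419. In progenitor against niche, Plppr1 also lost its call with 0.1 RPKM added (-2.92) and with 2 groups only (-2.25). Agpat1 lost its call there with 0.1 RPKM added (-1.26), no filter (-1.20), 2 groups only (-1.23), no trend (-1.23) and the replicate block (-1.23, adjusted p = 0.0762). With 2 groups only, 1418 genes were called in stem against progenitor in place of 594, and 528 in progenitor against niche, 4 of them LPA pathway genes. Without both progenitor replicate 1 and niche replicate 1, Plppr1 was called in stem against progenitor (-1.50). The counts were then 1116 genes in stem against progenitor, 3005 in stem against niche with 18 LPA pathway genes in place of 10, and 2000 in progenitor against niche with 15. Leaving out 1 library at a time gave -1.61 to -1.09 for Agpat1 in progenitor against niche. Counts of genes ran from 363 (without stem replicate 2) to 1093 (without niche replicate 1) in stem against progenitor and from 544 (without progenitor replicate 3) to 1647 (without niche replicate 1) in progenitor against niche. They were 560 without progenitor replicate 2 and 551 without progenitor replicate 4. LPA pathway genes ran from 7 to 16 in stem against niche, where the genes called among all tested genes ran from 1282 to 2495. In progenitor against niche LPA pathway genes ran from 5 to 14. Same-numbered libraries were not shown to be paired: correlations of their deviations from the group means ran from -0.13 to 0.21, and 5 of 12 matched their own number best. The block with replicate number changed no call of the 3 genes other than that of Agpat1, and of the other LPA pathway genes only that of Lpar2 in stem against niche (0.0533). Low reads limit Plppr1, with 6 and 9 reads in 2 libraries.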

Other observations

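Among the LPA genes with too few reads to be tested, the receptor gene Lpar3 had 1, 22, 9 and 83 reads in progenitor replicates 1 to 4, 3, 0, 0 and 1 in stem, and 0, 0, 1 and 0 in niche. The receptor gene Lpar5 had up to 33 reads in stem libraries (0, 6, 33 and 10), up to 6 in progenitor libraries and up to 12 in niche libraries. Gpat3, an acyltransferase of glycerol 3-phosphate, had 0, 10, 28 and 28 reads in progenitor and at most 12 in any other library. Gpat2 of the same enzyme class had 19 reads in stem replicate 3 and at most 2 in any other library. None of these was tested.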
